A study of Rattus norvegicus with 15 samples.

Results

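The comparison described here asks how the adult rat retina differed between 7 am and 1 pm when darkness was kept on for 6 further hours. It sets 3 arrays of retinas taken at 1 pm from rats left in the dark (6 ZT dark) against 3 arrays of retinas taken at 7 am at the end of the dark night (0 ZT dark), which are 6 of the 15 arrays of the series. All rats were Long-Evans, a pigmented strain, kept before the experiment under a cycle of 12 hours of light and 12 of darkness with lights on at 7 am, and the rats of both groups stayed in darkness from that night until collection. They were adults and RNA was hybridised to Affymetrix RAT230_2 arrays, according to the study's methods, which mention removal of the lens for the retinas used in real-time PCR and not for those of the arrays. The remaining arrays hold 3 ZT dark, taken at 10 am, and retinas taken at 10 am and 1 pm after exposure to 1000 lux (3 ZT light and 6 ZT light). The labels disagree on whether 6 ZT light had 3 or 6 hours of light. These arrays share 1 estimate of the spread with the 6 arrays compared here. Every one of the 31042 probe sets that is not an array control was compared, and each 6 ZT dark array was read against the 0 ZT dark array with its own replica number. The labels do not say whether replicas were separate animals or pools of them, so the spread behind each p-value may be technical.

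The retina keeps its own circadian clock. In this loop CLOCK and BMAL1 activate genes of the PER, CRY and REV-ERB families as well as the output factor DBP, and the PER and CRY proteins repress CLOCK and BMAL1 in return. Rods and cones release glutamate in the dark and spend much of the energy of the retina on the current that flows through them then. In rats left in the dark past dawn the clock runs on without its light signal. Clock hour and hours of darkness change together in this comparison and cannot be told apart. Bulk RNA cannot tell fewer cells of a type from less RNA per cell.

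The 6 arrays carried the RNA of a retina. The mean log2 level of 15 rod phototransduction genes lay between 14.13 and 14.44 on all of them, close to the top of the scale, and correlations between pairs of the 6 arrays ran from 0.977 to 0.994 over all probe sets. Array medians went with the replica number and not with the group (8.29 to 8.32 for replica 1, 8.61 to 8.62 for replica 2, 8.78 to 8.79 for replica 3). Levels of different replica numbers thus lie on shifted scales. Where groups are said below to overlap or not, levels are compared across these shifts. RNA integrity, read on *Actb* as the log2 signal at its 3′ end minus that at its 5′ end (a larger value means fewer intact 5′ ends), was 2.1, 1.2 and 0.81 in 0 ZT dark replicas 1, 2 and 3 and 1.09, 0.97 and 0.71 in the matching 6 ZT dark arrays. It was larger at 0 ZT in each of the 3 pairs, most of all in replica 1, and its part in the differences given below was not tested.

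No probe set passed an adjusted p of 0.05 in either direction in limma, which is 0.0% of the 31042 tested, and with array quality weights in the fit 3 did, all lower. At an unadjusted p under 0.05, 1077 probe sets were higher (3.47%) and 1634 lower (5.26%) in 6 ZT dark. The lowest adjusted p was 0.108, for a probe set with no gene symbol. In all 3 pairs 4813 probe sets were higher (15.5%) and 4678 lower (15.1%), and the median log2 difference over all probe sets was 0.01. In the same fit 3 ZT dark against 0 ZT dark gave 148 higher and 241 lower at that unadjusted threshold with none after adjustment, and 6 ZT dark against 3 ZT dark gave 772 and 952, again with none. The comparisons with 0 ZT dark share its 3 arrays. For single genes the values that follow are therefore descriptions of these arrays, and an adjusted p that misses the threshold does not show that a gene stayed level.

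The rule of the study's methods gives a different cut through the same arrays. It keeps a probe set whose ratio to the 0 ZT dark array of the same number is above 1.6, or below 0.7, in all 3 replicas. Here 20 probe sets lay above 1.6 (0.0644% of those tested) and 89 below 0.7 (0.287%). The lower cut lies nearer to 1 on a log scale than the upper one, so these counts are not directly comparable. Under the same rule 3 ZT dark over 0 ZT dark gave 0 and 5, and 6 ZT light over 0 ZT dark gave 22 and 22. Of the 20 higher ones 19 carried 1 gene symbol, naming 18 genes, and of the 89 lower ones 44 did, naming 42 genes. Lens genes and genes of synaptic transmission were among the higher ones, and immune, connective-tissue, signalling and non-coding RNA genes among the lower ones.

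**Figure D1:**
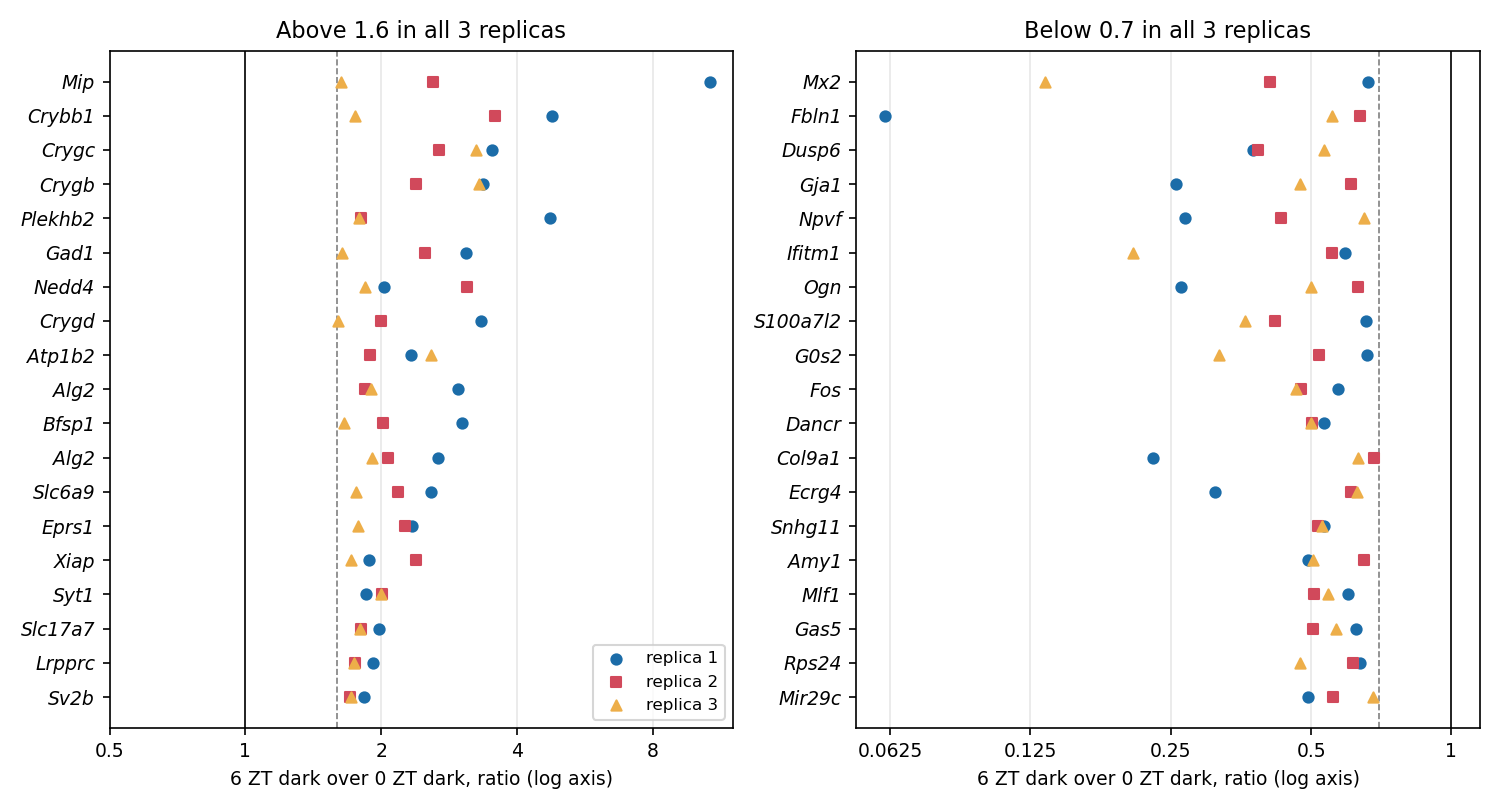
Ratio of 6 ZT dark over 0 ZT dark for each of the 3 replicas (points, log axis) of all 19 single-gene probe sets above 1.6 (left) and the 19 lowest below 0.7 (right); dashed lines mark 1.6 and 0.7. The lens gene *Mip* ranged from 1.63 to 10.7 between replicas, whereas *Dancr* lay between 0.5 and 0.532.

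Lens genes were the highest. Crystallins are the soluble proteins that fill lens fibre cells, and some of them are also made in retinal neurons and glia. *Crygc* read 9.83, 9.90 and 6.93 in 0 ZT dark and 11.65, 11.33 and 8.63 in 6 ZT dark. *Crygb* went with it, at 10.59, 10.58 and 7.40 against 12.34, 11.84 and 9.13. Replica 3 was low at both times, so that the groups overlapped, while ratios within pairs lay between 2.69 and 3.52 for *Crygc* and between 2.39 and 3.36 for *Crygb*. *Crygd*, at 10.52, 11.26 and 7.46 against 12.26, 12.26 and 8.15, had ratios of 3.33, 2.00 and 1.61. Adjusted p-values were 0.523, 0.526 and 0.524 for the 3 genes.

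Beyond the gamma crystallins, *Crybb1*, which codes for a beta crystallin, had ratios of 4.78, 3.58 and 1.75. *Mip*, the aquaporin of the lens fibre membrane, read 7.45, 10.37 and 11.16 in 0 ZT dark and 10.87, 11.76 and 11.87 in 6 ZT dark. *Bfsp1*, a subunit of the beaded filaments of lens fibres, read 8.53, 8.75 and 9.41 against 10.12, 9.76 and 10.14, and its groups did not overlap. Of 14 listed crystallins 13 were higher, 12 of them in all 3 pairs, and 3 at an unadjusted p under 0.05 (21.4%, against 2.02% of all gene symbols), with a median log2 difference of 0.97. The exception was *Cryga*, lower by 0.26. Among 13 genes of the fibre membrane and cytoskeleton 11 were higher, with a median of 0.43, against -0.01 over the brightest probe sets of all 14217 gene symbols, of which 12.1% were higher in all 3 pairs.

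The lens lists also varied between arrays of 1 condition. The mean level of the 14 crystallins lay between 11.35 (replica 1) and 12.70 (replica 2) in 0 ZT dark and was 12.73, 13.45 and 12.71 in 6 ZT dark. In 3 ZT dark it was 12.45, 11.16 and 11.65, and in 6 ZT light 11.85, 12.77 and 9.88, so that the highest value was in 6 ZT dark and the other 2 arrays of that group stood beside single arrays of 6 ZT light (12.77) and 0 ZT dark (12.70). *Lim2*, another fibre membrane protein, read 7.75 in 0 ZT dark replica 1 and 10.94 and 11.68 in the other replicas. Without 0 ZT dark replica 1, the array with the largest *Actb* difference of the 6, the median of the crystallins was 0.12 in place of 0.97. It was 0.77 with the whole replica 1 left out. The part of lens tissue in these values was not tested.

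**Figure D2:**
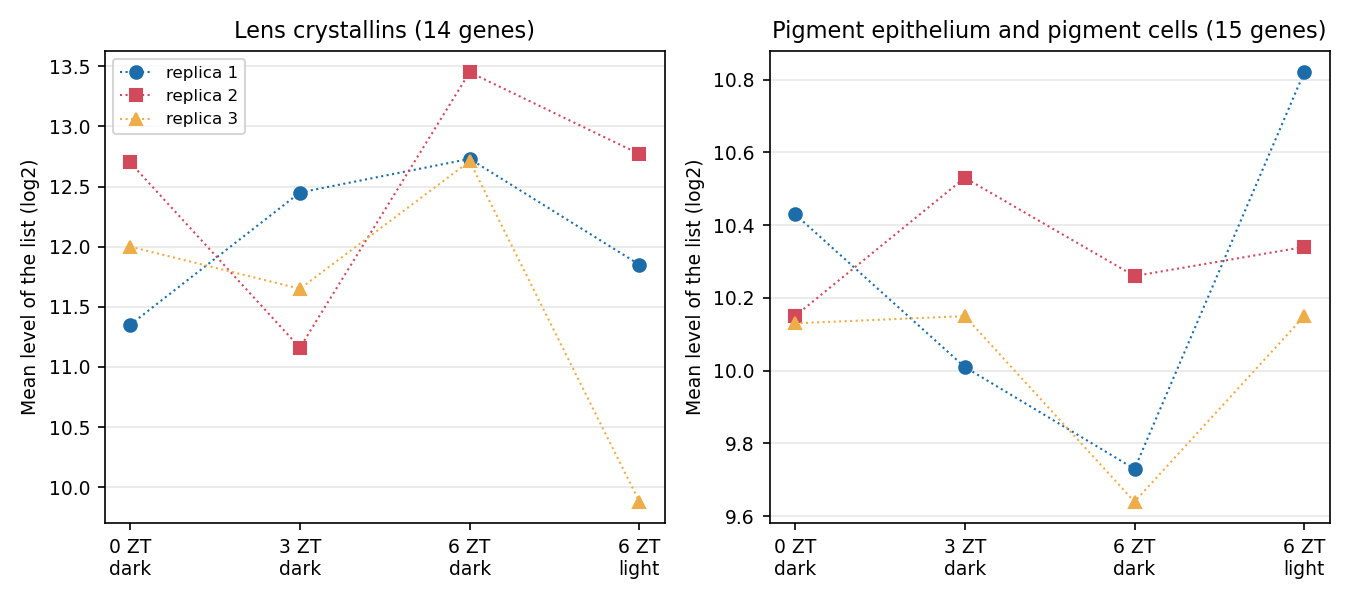
Mean log2 level of the 14 listed lens crystallins (left) and of 15 pigment epithelium and pigment cell genes (right) on each array of 4 conditions; dotted lines join arrays with the same replica number. In each replica the crystallins stood above their level at 0 ZT, and the pigment list was lower in replicas 1 and 3 but not in replica 2.

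The 3 gamma crystallins that passed the ratio rule sit side by side on chromosome 9, and the stretch before their start sites shows what they share. The last 100 bases before the start site are given from the RefSeq promoter windows (GRCr8, minus strand), and capitals mark the longest run common to the 3 windows. *Crygb* lies at chr9:73957265-73957364, *Crygc* at chr9:73947368-73947467 and *Crygd* at chr9:73937410-73937509.
Crygb: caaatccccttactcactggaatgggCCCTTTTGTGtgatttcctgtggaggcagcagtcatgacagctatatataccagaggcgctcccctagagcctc
Crygc: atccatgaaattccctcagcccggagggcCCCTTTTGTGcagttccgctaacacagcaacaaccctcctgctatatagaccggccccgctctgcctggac
Crygd: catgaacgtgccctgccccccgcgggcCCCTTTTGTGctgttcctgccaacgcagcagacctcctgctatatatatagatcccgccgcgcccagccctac
The shared run of 10 bases ends 64, 61 and 63 bases before the start site. It was found, on either strand, in 39 of 33469 promoter windows of 300 bases (0.117%). Among the 13 listed crystallins with a window, 4 held it, and the fourth was *Cryga*, which was not higher. The shared letters are a description of the windows and mark no site.

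Beyond the lens, several of the genes above 1.6 work at synapses. They are grouped here after they had passed the ratio rule. *Syt1*, the calcium sensor of vesicle release, read 8.84, 9.01 and 10.09 in 0 ZT dark and 9.73, 10.01 and 11.09 in 6 ZT dark. Each pair differed by about the same factor (ratios of 1.85, 2.01 and 1.99, adjusted p = 0.484), and the groups overlapped. *Slc17a7*, the vesicular glutamate transporter that photoreceptors and bipolar cells use to fill their vesicles, had ratios of 1.98, 1.81 and 1.80. *Gad1*, which makes GABA, had ratios of 3.08, 2.50 and 1.64. *Slc6a9*, a glycine transporter, had ratios of 2.59, 2.18 and 1.76, and *Sv2b*, a synaptic vesicle protein, 1.83, 1.71 and 1.71. Not all the others were synaptic. *Atp1b2*, a subunit of the sodium pump, had ratios of 2.33, 1.89 and 2.58. The remaining named genes above 1.6 were *Plekhb2*, *Nedd4*, *Alg2*, *Eprs1*, *Xiap* and *Lrpprc*. The mean ratios of their passing probe sets ran from 1.80 (*Lrpprc*) to 2.78 (*Plekhb2*).

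Most of these calls rested on a probe set dimmer than another one of the same gene. All 12 probe sets above 1.6 whose gene has several probe sets were not its brightest. Below 0.7 this held for 14 of the 25 probe sets of such genes. For *Gad1* the passing probe set had a mean level of 8.28 in 0 ZT dark, and the brighter one, at 13.57, had a mean ratio of 1.04. The brighter probe set of *Slc17a7* had a mean ratio of 1.39 and that of *Atp1b2* 1.31. The passing probe set of *Gad1* was lowest on the 0 ZT dark array with the largest *Actb* difference, at 6.81 against 8.50 and 9.53, and so was that of *Slc6a9*, at 7.55 against 9.43 and 10.11. Where on the transcript each probe set lies was not analysed here.

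**Figure D3:**
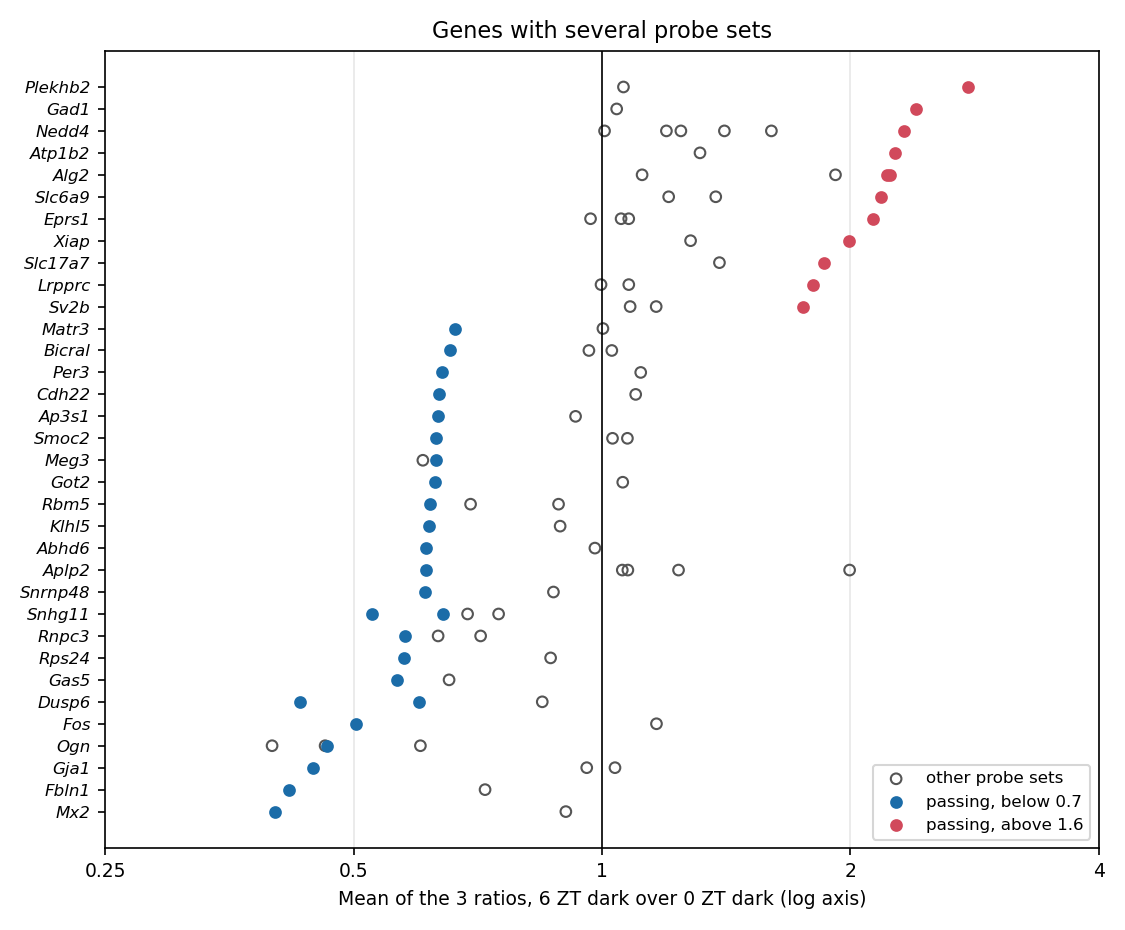
Mean of the 3 ratios of 6 ZT dark over 0 ZT dark (log axis) for the genes with several probe sets that had at least 1 passing the ratio rule; filled points passed it and open points are the gene's other probe sets. Among genes passing above 1.6, the other probe sets of *Gad1*, *Plekhb2* and *Eprs1* lay near 1. Those of *Slc17a7*, *Atp1b2* and *Xiap* stood above 1, on the same side as the passing ones. Among genes passing below 0.7, those of *Gas5*, *Snhg11*, *Meg3*, *Ogn* and *Rnpc3* stood on the same side. Those of *Aplp2*, *Cdh22* and *Got2* stood above 1, on the opposite side.

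Read at the brightest probe set of each gene, synaptic genes were higher by small amounts. Of 34 genes of synaptic vesicle release 33 were higher (97.1%, against 47.4% of all gene symbols), 11 of them in all 3 pairs (32.4%, against 12.1%). The median log2 difference was 0.15, with pair medians of 0.13, 0.26 and 0.10. At an unadjusted p under 0.05 there were 3, *Syt1*, *Syt11* and *Sgip1* (8.82%, against 2.02% of all gene symbols), and none passed the adjusted test. *Syn1*, a phosphoprotein of the vesicle surface, read 10.35, 10.68 and 10.83 against 10.80, 11.53 and 10.92, a difference of 0.47 with a standard error of 0.23. *Syt4*, lower by 0.09, was the one gene below 0. Of 25 GABA, glycine and glutamate receptor subunits 20 were higher (80%, against 47.4%), with a median of 0.08. At an unadjusted p under 0.05 there were 3, all higher (12%, against 2.02%). The largest difference was that of *Gabrr2*, a subunit of the GABA receptor of bipolar cells, at 0.66. The lowest p was that of *Grin2d*, an NMDA receptor subunit, with a difference of 0.56. Of 32 voltage-gated channel subunits 23 were higher (71.9%, against 47.4%), with a median of 0.07. Only 1 of them was at an unadjusted p under 0.05, a share (3.12%) near the 2.02% of all gene symbols.

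*Fos* and *Dusp6* passed the lower cut of the ratio rule. *Fos*, an immediate early transcription factor that neurons switch on with activity, read 12.46, 12.17 and 11.34 in 0 ZT dark and 11.65, 11.10 and 10.22 in 6 ZT dark. Its ratios were 0.572, 0.475 and 0.463, each pair differing by about as much while the groups overlapped (difference -1.0, standard error 0.46, adjusted p = 0.58). It read 11.55, 12.36 and 11.40 in 3 ZT dark and 11.68, 12.24 and 12.14 in 6 ZT light. A second *Fos* probe set, between 6.55 and 7.20 on the 6 arrays, had a mean ratio of 1.16. *Dusp6*, the phosphatase that switches ERK off and is itself induced by ERK, read 10.90, 10.52 and 10.48 at its brightest probe set in 0 ZT dark and 9.92, 9.78 and 9.96 in 6 ZT dark, with no overlap. A second *Dusp6* probe set also passed the ratio rule, with a mean ratio of 0.431, and the third had 0.847.

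The other immediate early genes stood on both sides. Of 22 listed, 9 were higher and 12 lower, with a median log2 difference of -0.02, and *Dusp6* was the single one at an unadjusted p under 0.05. *Ier2* and *Atf3* were each lower by 0.33, *Egr1* by 0.10 and *Junb* higher by 0.07. Of 15 genes of ERK feedback, 8 were higher and 7 lower, with a median of 0.01.

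*Per3* was the one of 22 clock genes at an unadjusted p under 0.05, a share near that of all gene symbols (2.02% higher and 6.04% lower). Its brightest probe set read 8.85, 10.25 and 10.27 in 0 ZT dark and 8.22, 9.66 and 9.56 in 6 ZT dark, ratios of 0.648, 0.662 and 0.612 (difference -0.64, standard error 0.23, adjusted p = 0.531). In 3 ZT dark it read 9.34, 9.90 and 9.94. The other *Per3* probe set, dimmer at 6.86 to 7.67 on the 6 arrays, was higher by 0.15, so that the pair of probe sets disagreed. *Dbp*, the output factor driven directly by CLOCK and BMAL1, read 10.83, 11.87 and 12.47 against 11.60, 12.39 and 12.54. Its ratios of 1.71, 1.44 and 1.05 were largest in replica 1, and the adjusted p was 0.665.

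Core genes of the loop had smaller differences. *Bmal1* differed by 0.07, *Clock* by -0.18, *Per1* by 0.10 and *Per2* by -0.18, with standard errors from 0.09 to 0.22. *Cry1* read 11.59, 11.69 and 11.59 against 11.62, 11.51 and 11.74. *Per2* was lower in all 3 pairs at its brighter probe set, at 10.77, 10.77 and 10.78 against 10.52, 10.55 and 10.69. *Nr1d1*, which codes for REV-ERB alpha, was higher by 0.27, at ratios of 1.27, 1.54 and 0.89. *Cry2* depended on the probe set, with 0.08 at the brightest and 0.61 at the dimmer one (8.19, 9.01 and 9.26 against 9.0, 9.52 and 9.76). Of 9 repressors and E-box targets 5 were higher and 4 lower, and of 5 activators 2 were higher and 3 lower. Of the PAR bZIP factors *Dbp*, *Tef* and *Hlf* with *Nfil3*, 3 of 4 were higher, and of 4 clock kinases and ubiquitin ligases 3 were higher.

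**Figure D4:**
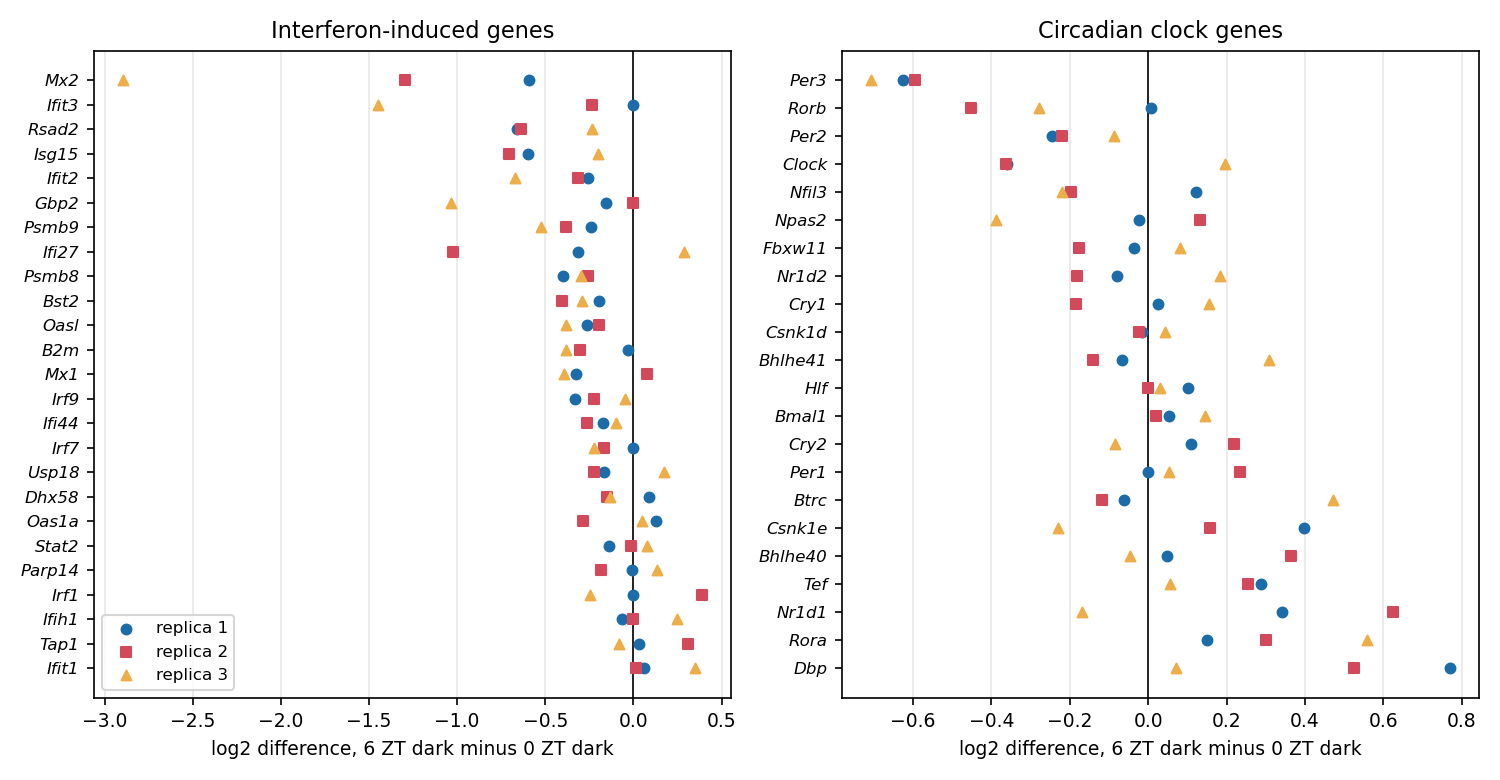
Log2 difference of 6 ZT dark minus 0 ZT dark in each replica pair (points) for 25 interferon-induced genes (left) and 22 circadian clock genes (right), at the brightest probe set of each gene and ordered by the fitted difference. *Mx2* and *Per3* lay below 0 in all 3 replicas, and 16 of the 22 clock genes did not lie on 1 side of 0 in all replicas.

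Interferon-induced genes were lower as a list. Cells make these antiviral proteins when interferon binds its receptor, and resting tissue keeps a low level of them. Of 25 listed, 21 were lower, 11 of them in all 3 pairs (44%, against 17.9% of all gene symbols), and 7 at an unadjusted p under 0.05 (28%, against 6.04%). The median log2 difference was -0.22, with pair medians of -0.17, -0.22 and -0.22. *Mx2*, a GTPase that blocks viruses, read 8.06, 8.63 and 8.31 in 0 ZT dark and 7.47, 7.33 and 5.42 in 6 ZT dark, with no overlap (difference -1.60, standard error 0.36, adjusted p = 0.457), and its dimmer probe set had a mean ratio of 0.904. *Rsad2*, the antiviral enzyme viperin, read 8.55, 8.69 and 8.83 against 7.89, 8.06 and 8.60. *Isg15*, a ubiquitin-like protein, read 8.32, 8.80 and 8.37 against 7.72, 8.09 and 8.17.

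The same direction held for *Psmb8* (-0.32), a subunit of the immunoproteasome, *Bst2* (-0.30), which tethers budding viruses, *Oasl* (-0.28) and *Ifi44* (-0.18). *Ifitm1* and *Ifitm3*, membrane proteins that hinder virus entry and were not on the list, passed the ratio rule with mean ratios of 0.451 and 0.589. *Ifitm1* read 7.41, 7.72 and 8.69 in 0 ZT dark and 6.65, 6.86 and 6.42 in 6 ZT dark. In 3 ZT dark the median of the 25 genes stood at -0.17 against the same 0 ZT dark arrays, and *Mx2* read 7.16, 7.36 and 7.15 there. In 6 ZT light the median against these arrays was -0.14, with 23 of the 25 genes lower. The median of 18 microglia and complement genes, cells of the immune system in the retina, was -0.08, with 14 lower and none at an unadjusted p under 0.05.

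Interferon response factors bind a tandem element that the letters GAAANNGAA describe, with N any base, and the promoter windows of the list were searched for it on both strands, overlapping matches included. It was present in 13 of the 19 listed genes with a window, against 10.3% of all 27457 genes with one. Stretches around a match are shown for 3 genes that were lower at an unadjusted p under 0.05, with the matches in capitals (RefSeq, GRCr8, minus strand). *Rsad2* is at chr6:48788233-48788291, *Bst2* at chr16:18255059-18255117 and *Ifi44* at chr2:243303841-243303890.
Rsad2: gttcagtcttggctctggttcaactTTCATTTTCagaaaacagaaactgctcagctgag
Bst2: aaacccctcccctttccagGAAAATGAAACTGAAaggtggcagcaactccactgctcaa
Ifi44: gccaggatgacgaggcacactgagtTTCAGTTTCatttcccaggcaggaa
The *Bst2* stretch holds a pair of overlapping matches, and those of *Rsad2* and *Ifi44* read on the opposite strand. *Ifit3*, *Irf7* and *Tap1* also hold the element, and of these *Tap1* was higher by 0.09. A match does not say that a factor was bound.

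Several long non-coding RNAs passed the lower cut. They are grouped here after their values were seen, and how many such RNAs the array holds was not counted. *Dancr*, which hosts small nucleolar RNAs, read 9.64, 10.26 and 10.43 in 0 ZT dark and 8.73, 9.27 and 9.43 in 6 ZT dark. Its ratios were 0.532, 0.503 and 0.5, and its adjusted p of 0.266 was the lowest of any probe set with 1 gene symbol and its groups did not overlap. *Gas5*, a host of small nucleolar RNAs whose transcript is degraded when it is translated, had mean ratios of 0.564 and 0.653 at its 2 probe sets. *Snhg11*, another host gene, lay below 1 at all 4 of its probe sets, from 0.526 to 0.749. *Meg3*, an imprinted transcript, had mean ratios of 0.607 and 0.629. In 6 ZT light *Dancr* read 8.90, 10.05 and 9.70 and the brighter *Meg3* probe set 9.64, 12.51 and 11.51.

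A probe set annotated to *Mir29c* also passed, at 10.20, 10.79 and 10.65 against 9.18, 9.95 and 10.09. The array measures polyadenylated RNA, so the value is that of a longer transcript and not of the mature microRNA. The mature arms that RefSeq lists on chromosome 13 (GRCr8, plus strand) are shown with the seed, bases 2 to 8, in capitals, since the seed sets which messages a microRNA can pair with.
rno-miR-29c-3p: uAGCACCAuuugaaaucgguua
rno-miR-29c-5p: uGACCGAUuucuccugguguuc
The ratios of this probe set were 0.492, 0.558 and 0.680, with an adjusted p of 0.495.

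Genes of RNA processing also passed the lower cut. *Rnpc3*, a protein of the minor spliceosome, read 11.25, 11.90 and 11.82 at its brightest probe set in 0 ZT dark and 10.81, 11.09 and 11.07 in 6 ZT dark, and the probe set that passed had ratios of 0.575, 0.552 and 0.607. *Snrnp48*, of the same spliceosome, read 9.56, 9.60 and 10.06 against 9.03, 8.67 and 9.35, with no overlap. For *Rbm5*, a regulator of splicing, and *Matr3*, a nuclear matrix protein that binds RNA, the passing probe set had mean ratios of 0.618 and 0.664 and the brightest ones 0.886 and 1.00. The 35 listed splicing factors had a median of -0.04, with 23 lower and 3 of them at an unadjusted p under 0.05, a share (8.57%) near the 6.04% of all gene symbols.

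Other genes below the lower cut, also grouped after their values were seen, code for extracellular or secreted proteins and a gap junction protein, and replica 1 differed most in the first 5 named here. *Fbln1*, a protein of basement membranes and elastic fibres, read 10.78, 10.96 and 7.96 in 0 ZT dark and 6.74, 10.31 and 7.11 in 6 ZT dark. *Col9a1*, a chain of the collagen IX of the vitreous and cartilage, read 11.48, 11.60 and 11.11 against 9.35, 11.05 and 10.44. *Gja1*, the gap junction protein connexin 43 of glia and pigment epithelium, read 13.51, 13.56 and 11.98 against 11.55, 12.85 and 10.90, while its dimmer probe sets had mean ratios of 0.958 and 1.04. *Npvf*, a precursor of RFamide neuropeptides, had ratios of 0.268, 0.431 and 0.650, and *Ecrg4*, a secreted peptide precursor, 0.312, 0.608 and 0.628. *Ogn*, a small leucine-rich proteoglycan, lay below 1 at all 4 probe sets, with mean ratios from 0.398 to 0.603.

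Markers of the neighbouring pigment epithelium were read beside these. Of 15 such genes 13 were lower (86.7%, against 52.5% of all gene symbols), with a median of -0.38 and pair medians of -0.74, 0.05 and -0.44, and 3 were at an unadjusted p under 0.05 (20%, against 6.04%). *Lrat*, which stores vitamin A as its ester, read 10.82, 9.37 and 9.45 in 0 ZT dark and 9.01, 9.36 and 8.21 in 6 ZT dark. *Rgr*, an opsin of the pigment epithelium and Müller cells, read 13.35, 12.54 and 12.47 against 12.13, 12.59 and 11.72. Both were level in replica 2. The mean level of the list ranged from 10.13 to 10.43 in 0 ZT dark and from 9.64 to 10.26 in 6 ZT dark. The 13 ciliary body and iris genes had a median of -0.20 and pair medians of -0.20, -0.10 and -0.08, with 3 lower at an unadjusted p under 0.05 (23.1%, against 6.04%), *Col9a1* among them. The 19 connective-tissue genes of the eye wall were 9 higher and 10 lower. The part of these tissues in the values of *Fbln1*, *Gja1*, *Ogn* and *Npvf* was not tested.

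Genes of protein synthesis and oxidative metabolism had medians below 0 in replicas 2 and 3 but not in replica 1. Of 48 cytosolic ribosomal proteins 45 were lower (93.8%, against 52.5% of all gene symbols), 9 at an unadjusted p under 0.05 (18.8%, against 6.04%), with pair medians of 0.00, -0.32 and -0.19. Of 34 subunits of complex I of the respiratory chain, 32 were lower (94.1%), 10 at an unadjusted p under 0.05 (29.4%), with pair medians of 0.03, -0.37 and -0.27. ATP synthase, which turns the proton gradient into ATP, had 12 of 16 subunits lower and pair medians of 0.04, -0.43 and -0.22. *Atp5f1e*, its epsilon subunit, read 13.86, 13.88 and 14.03 against 13.84, 13.01 and 13.58, and *Ndufb1*, an accessory subunit of complex I, 13.43, 13.38 and 13.90 against 13.53, 12.28 and 13.37. In both genes replica 1 was level and replica 2 differed most. *Cox8b*, a subunit of complex IV, was lower in every pair, at 7.87, 7.66 and 7.79 against 7.52, 7.13 and 7.19 (adjusted p = 0.457). Its levels lie far below those of *Atp5f1e* and *Ndufb1* and around 7.48, the level used here to filter dim probe sets.

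Complexes II to IV, with 24 of 28 subunits lower, had pair medians of 0.01, -0.26 and -0.15. The proteasome, which degrades tagged proteins, had 22 of 30 subunits lower, none at an unadjusted p under 0.05, and pair medians of 0.07, -0.19 and -0.17. Replica 1, the level one in all of these lists, was the pair with the largest gap in the *Actb* measure (2.1 against 1.09), and replica 3 the pair with the smallest (0.81 against 0.71). In 3 ZT dark the medians against 0 ZT dark were 0.01 for ribosomal proteins and -0.04 for complex I. In 6 ZT light, against the same 0 ZT dark arrays, they were -0.12 (44 of 48 lower) and -0.19 (31 of 34 lower). The lower levels were thus not particular to 6 ZT dark.

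**Figure D5:**
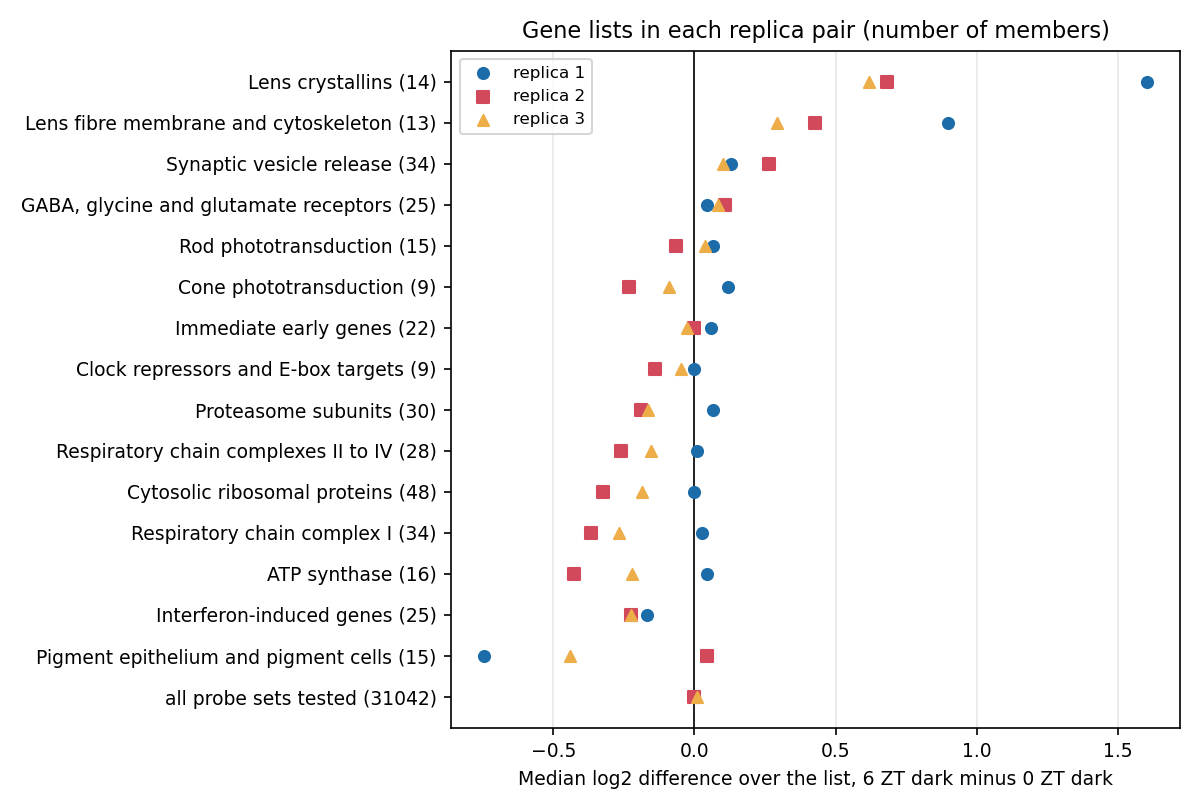
Median log2 difference of 6 ZT dark minus 0 ZT dark over each gene list in each of the 3 replica pairs (points), with the number of members in brackets and all 31042 probe sets in the lowest row. Lens lists lay above 0 and interferon-induced genes below 0 in every replica, whereas ribosomal, respiratory and ATP synthase genes lay near 0 in replica 1 and below it in replicas 2 and 3.

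Rod and cone genes were counted apart. Of 15 rod phototransduction genes 8 were higher and 7 lower, with a median of 0.01 and none at an unadjusted p under 0.05. Of 9 cone genes 6 were lower, and 3 were at an unadjusted p under 0.05 (33.3%, against 6.04% of all gene symbols). *Arr3*, cone arrestin, read 11.43, 11.58 and 12.03 in 0 ZT dark and 11.18, 10.81 and 11.40 in 6 ZT dark (difference -0.55, standard error 0.15, adjusted p = 0.495). *Gngt2*, the gamma subunit of cone transducin, read 12.42, 12.78 and 13.39 against 12.40, 12.01 and 12.66. *Pde6h*, the inhibitory subunit of the cone phosphodiesterase, read 13.62, 13.61 and 13.61 against 13.79, 12.98 and 12.61. The latter 2 were level or higher in replica 1 and lower in replicas 2 and 3. The cone opsins *Opn1sw* and *Opn1mw* were higher by 0.19 and 0.14.

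Genes that the study named from these arrays were also read in darkness. Of 17 listed, 15 were higher (88.2%, against 47.4% of all gene symbols), 9 of them in all 3 pairs (52.9%, against 12.1%), with a median of 0.32. At an unadjusted p under 0.05 there were 5 (29.4%, against 2.02%), *Ccng1*, *Cpt1a* and the 3 gamma crystallins. The study chose them on these samples, so the list is not independent evidence of its direction. *Dio2*, the deiodinase that makes active thyroid hormone, read 5.87, 6.56 and 7.12 in 0 ZT dark and 5.83, 6.80 and 7.56 in 6 ZT dark. *Dio3*, which inactivates the hormone, read 8.81, 8.56 and 7.74 against 7.20, 8.37 and 7.61, a difference carried by replica 1. Of 18 genes of the thyroid hormone cascade 8 were higher and 10 lower, with a median of -0.02. *Crh*, corticotropin releasing hormone, had ratios of 0.815, 2.10 and 0.967. Among the brightest probe sets of genes that were higher in all 3 pairs, *Ccng1*, cyclin G1, had the lowest p, at 12.56, 12.78 and 12.88 against 12.98, 13.35 and 13.49 (difference 0.54, standard error 0.11, adjusted p = 0.457). It read 12.76, 13.22 and 13.32 in 3 ZT dark and 13.33, 13.75 and 13.72 in 6 ZT light. *Pax4*, a homeobox factor, was higher by 0.71 and *Cpt1a*, which brings fatty acids into mitochondria, by 0.32.

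The remaining genes with the lowest p were of several kinds. On the higher side *Gnaq*, the alpha subunit of a G protein that signals to phospholipase C, read 7.49, 7.82 and 8.55 against 8.12, 8.31 and 8.98, and *Ahr*, the aryl hydrocarbon receptor, was higher by 0.51. On the lower side *Fkbp7*, a chaperone of the endoplasmic reticulum, was lower by 0.52 with an adjusted p of 0.381. *Gng11*, a G protein gamma subunit, was lower by 0.49, and *Nrf1*, a factor that activates nuclear genes of the respiratory chain, by 0.40. These genes were picked for lying on the same side in all 3 pairs.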

How the data were processed

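Total retinal RNA was hybridised to Affymetrix RAT230_2 arrays. The authors deposited log2 expression values per probe set, made by RMA (background correction, quantile normalization and probe summary) according to their methods; the software version is not given in the sources used here, nor whether the 15 arrays were normalized together. From these values a linear model with the 5 conditions and the replica number as a block was fitted over all 15 arrays in limma 3.58.1 (R 4.3.3), and p-values were adjusted by Benjamini-Hochberg over 31042 probe sets at a threshold of 0.05, after 57 array controls were left out. The model was also run on simulated data in which every probe set had the same spread. The spread of the real probe sets differs, so that run does not measure how the model does on these arrays. The ratio rule of the methods, above 1.6 or below 0.7 against the control of the same replica in all 3 replicas, was applied to the same values. The number of arrays limits the precision.

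The replica numbers come from the titles, and the methods form ratios within a number. Over the 15 arrays the medians ran from 8.28 to 8.32 in replica 1, 8.58 to 8.68 in replica 2 and 8.74 to 8.80 in replica 3. Quantile normalization of all 15 together would bring the medians close to a common level, so the replica numbers do not share a scale. Deviations from the group means correlated at 0.574, 0.539 and 0.633 between 6 ZT dark and 0 ZT dark arrays of the same number and between -0.418 and -0.147 otherwise. The deviations of a group cancel out over its arrays, so negative values across numbers follow in part from positive ones within a number.

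Platform annotation gave 1 gene symbol to 20826 probe sets, several to 436 and none to 9780. Gene lists (46, with 4 members matched by an older or newer symbol) were read at the brightest probe set of each gene over the 15 arrays. Genes were named by these rules: the 12 brightest probe sets with the lowest p in each direction and the same sign in all pairs, up to 12 by mean ratio under the ratio rule, all clock genes, up to 4 of each list by p, and genes the study named. Other genes in the text were chosen after their values were seen. Members, lists and rules were chosen with earlier results of these data known. Sequences are from RefSeq (GRCr8). Alternatives were other normalizations, no block, array weights, a filter on dim probe sets, other ratios, 1 probe set per gene, only the conditions compared, and leaving out arrays.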

Additional observations from a re-analysis of the deposited data

How the results depend on the processing

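No named probe set with an unadjusted p under 0.05 in the main fit reversed its direction under the alternatives run. For other probe sets and for the list medians a reversal of direction was not looked for. In limma, no probe set passed the adjusted threshold in 6 ZT dark against 0 ZT dark except with array quality weights (0 higher and 3 lower, *Dancr* at an adjusted p of 0.045 and others with no gene symbol) and without 3 ZT light replicate 2 (1 higher, *Clcn4*), so that leaving out arrays gave 0 to 1 higher. At an unadjusted p the counts ran from 32 to 1768 higher and from 344 to 2388 lower. Without the replicate block these were 32 and 344, with 0 after adjustment. In 6 ZT light against 6 ZT dark array quality weights gave 2311 changed probe sets, and leaving out arrays gave 0 to 3, the 3 without 6 ZT light replicate 1.

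The ratio rule was sensitive to its settings. Without the pairing, against the mean of the 3 controls, 12 probe sets lay above and 61 below, of which 4 and 30 were shared with the paired rule. At ratios of 2 and 0.5 there were 2 and 4, and at 1.5 and its inverse 41 and 52. In these settings the upper and lower cuts lie equally far from 1 on a log scale. Counted once per gene symbol, the 89 probe sets below 0.7 gave 42. Leaving out a replica number gave 32 to 163 above and 211 to 417 below. The median of the lens crystallins was 0.12 without 0 ZT dark replicate 1 and 0.23 with 3 ZT light replicate 2 left out as well, an alternative chosen after seeing the data. Having 3 arrays a group limits every comparison. The causes were not tested.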
